A study of Mus musculus with 4 samples.

Results

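Nonclassical MHC class I genes were followed in immune cells of the mouse small intestine across cell classes and between diets. The 9 genes, taken by symbol out of 32285 genes in each count table, were H2-Q1, H2-Q2, H2-Q4, H2-Q6, H2-Q7, H2-T3, H2-T22, H2-T23 and H2-M3, and all 9 had UMIs in each of the 4 libraries. The libraries are 10x Genomics 5′ single-cell libraries of CD45+ cells, sorted by flow cytometry from intestinal crypts of male mice, with 18000 cells loaded for each. Cystine replicates 1 and 2 came from mice on a diet with added cystine, the oxidised dimer of cysteine, and control replicates 1 and 2 from mice on the control diet. The titles give the groups, because the treatment field reads the same for all 4, and the sex stands in the field for genotype. Strain, age, the dose of cystine, and whether a sample is 1 mouse or a pool are not given in the sources used here, so a p-value measures the spread between these 4 samples alone.

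Class I molecules are membrane proteins that pair with beta-2-microglobulin (B2m). The classical ones, H2-K1 and H2-D1, show peptides from inside the cell to CD8 T cells. The nonclassical ones vary less between individuals, and several are read by receptors of innate-like lymphocytes, which are abundant among the intraepithelial lymphocytes of the gut. H2-Q6 and H2-Q7 belong to the Qa-2 family. H2-T23 encodes Qa-1, which shows leader peptides of other class I molecules to receptors made of NKG2 and CD94 chains. H2-T22 is bound without peptide by some γδ T cell receptors. H2-M3 presents formylated peptides, as bacteria and mitochondria make them, and H2-T3 encodes the thymus leukemia antigen, a ligand of CD8αα on intestinal epithelium. Transcription of class I genes is known to be raised by interferons and by NLRC5, a transactivator that acts at the upstream promoter.

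The stretch from 190 to 61 bases before the annotated gene start is printed for H2-Q4, H2-Q6 and H2-Q7, which differ most often between classes among genes found throughout them, for H2-T22 and H2-T23, which varied less, and for H2-T3, which was found mainly in epithelial-rich barcodes. The sequences are RefSeq's, of build GRCm38.p6, read 5′ to 3′ on the strand of the gene, and 8 of the 9 genes had one. Capitals mark matches to GTTTCNNTT (called interferon-response-like here), GGGATTNCC (NF-kB-like) and TGATGAC (X2-like, after a box of class I and class II promoters). These letters were chosen after the sequences had been seen. The submitters' processing notes name another build, GRCm39, and the count tables hold no coordinates. H2-Q4 lies at chr17:35379427-35379556 on the plus strand, H2-Q6 at chr17:35424660-35424789 on the plus strand, and H2-Q7 at chr17:35438965-35439094 on the plus strand. H2-T22 lies at chr17:36042803-36042932, H2-T23 at chr17:36032762-36032891 and H2-T3 at chr17:36190212-36190341, all on the minus strand.
H2-Q4: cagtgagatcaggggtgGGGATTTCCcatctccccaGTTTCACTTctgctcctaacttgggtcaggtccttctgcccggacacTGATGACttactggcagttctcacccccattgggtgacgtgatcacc
H2-Q6: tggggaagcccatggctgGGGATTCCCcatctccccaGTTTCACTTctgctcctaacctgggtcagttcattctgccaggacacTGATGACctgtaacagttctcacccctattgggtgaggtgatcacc
H2-Q7: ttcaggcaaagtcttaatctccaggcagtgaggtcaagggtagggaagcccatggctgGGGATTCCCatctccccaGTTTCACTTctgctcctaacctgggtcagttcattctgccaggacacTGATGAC
H2-T22: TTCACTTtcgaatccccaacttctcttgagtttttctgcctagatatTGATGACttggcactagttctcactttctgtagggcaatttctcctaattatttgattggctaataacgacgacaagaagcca
H2-T23: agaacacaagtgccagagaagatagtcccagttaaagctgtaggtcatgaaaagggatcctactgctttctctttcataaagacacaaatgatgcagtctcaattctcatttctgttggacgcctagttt
H2-T3: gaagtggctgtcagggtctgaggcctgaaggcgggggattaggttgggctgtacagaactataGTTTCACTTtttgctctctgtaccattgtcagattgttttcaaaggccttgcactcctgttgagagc

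H2-Q4, H2-Q6 and H2-Q7 carried all 3 motifs in the same order. In H2-Q4 the NF-kB-like match ran from position -173 to -165, the interferon-response-like one from -154 to -146 and the X2-like one from -107 to -101. H2-T22 and H2-M3 had the interferon-response-like and X2-like matches without the NF-kB-like one. The first match of H2-T22 starts at -192, so the printed stretch cuts it, and the X2-like match of H2-M3 lies at -49 to -43. H2-T3 had the interferon-response-like match alone, and H2-T23 and H2-Q2 had none of the 3. The letters CCAAT, not in capitals, were found in each of the 8 except H2-T3. Both strands were searched over the whole of each promoter, 250 bases before to 50 after the start, and no 2 matches overlapped. Of 27025 RefSeq promoters of the same length, 5.82% held the interferon-response-like letters, 0.984% the NF-kB-like, 3.36% the X2-like and 37.9% CCAAT. The interferon-response-like letters, the X2-like letters and CCAAT stood together in 30 promoters, 0.111% of them. The members were not taken out of these promoters. The letters were chosen after the sequences had been seen, so the shares are not a test of enrichment. A match is a description of letters and not a binding site.

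**Figure D1:**
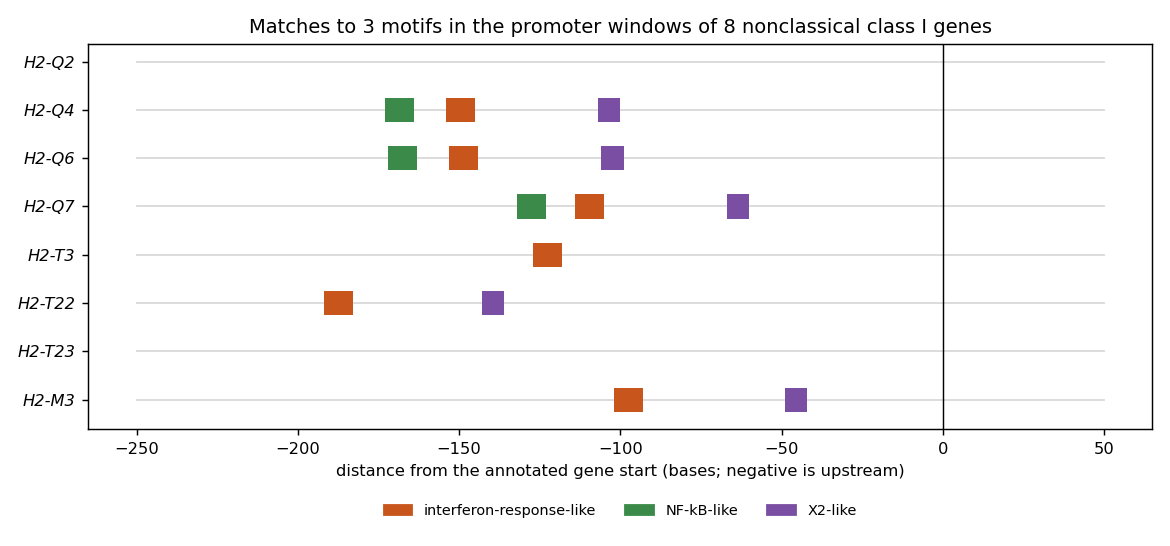
Positions of matches to 3 motifs in the promoters of 8 nonclassical class I genes. The horizontal axis is the distance from the annotated gene start in bases and each row is a gene. H2-Q4, H2-Q6 and H2-Q7 hold all 3, with those of H2-Q7 nearer to its annotated start, and H2-T23 and H2-Q2 hold none.

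After filters on barcodes, 58725 of 68260 were kept: 16317 and 14369 in cystine replicates 1 and 2, against 14558 and 13481 in control replicates 1 and 2. Their median depth was 1294 and 1487 UMIs in cystine samples, against 1335 and 1713 in control samples. Cystine replicate 1 has 19351 barcodes, more than the cells loaded, and 1680 of 57017 barcode sequences among the kept cells occur in more than 1 library. Cells were put into classes by their own UMIs. Trdc+ T cells (17622) have a Cd3 and a Trdc UMI and neither Cd4 nor Cd8b1, CD8αβ-like cells (3358) have Cd8a and Cd8b1, and Cd8a+ T cells (15423) have Cd8a and αβ receptor UMIs without Cd8b1 or Trdc. CD4 T-like (242), B-like (3352), pDC-like (287, plasmacytoid dendritic cells) and myeloid-like cells (269) complete the 7 classes. The Trdc+ T and Cd8a+ T classes keep the names of their rules, because Trac averaged 464 and 621 CPM (UMIs scaled to a common library total) and Tcrg-C1 680 and 442 CPM in them. Genes outside the gates marked other classes: Cd40lg and Icos in CD4 T-like cells, Cd74 in B-like cells, Bst2 and Irf8 in pDC-like cells, and Cst3 in myeloid-like cells. In CD8αβ-like cells Thy1 (574 CPM) and Cd5 (160 CPM) stood above Trdc+ T and Cd8a+ T cells. CD4 T-like cells had as much Thy1 and more Cd5 (574 and 613 CPM). Trac and Trbc2, at 330 and 350 CPM in CD8αβ-like cells, were below Cd8a+ T cells (621 and 451 CPM). Fcer1g, Tyrobp and H2-Aa, also checked for myeloid-like cells, were higher in Trdc+ T, pDC-like and B-like cells, in that order. The pDC-like class also had Epcam at 549 CPM. All levels below are UMIs of a class summed per sample and given as CPM, a scale that holds for 1 gene across samples and not between genes.

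The Qa-2 family genes H2-Q7 and H2-Q6 and their neighbour H2-Q4 had their lowest mean levels in myeloid-like cells. For H2-Q7 and H2-Q4 the means of B-like cells lay between those of myeloid-like cells and those of the 4 T cell classes, whereas for H2-Q6 CD4 T-like cells stood near B-like cells. H2-Q7 stood at 17.8 and 35.9 CPM in cystine and 56.7 and 86.8 CPM in control samples in myeloid-like cells, which rests on 5, 10, 8 and 19 UMIs. Its level was 125 and 128 CPM in cystine and 88.1 and 285 CPM in control samples in B-like cells. In Trdc+ T cells it was 474 and 427 CPM in cystine and 485 and 547 CPM in control samples. Every myeloid-like sample was thus below every B-like sample, and every B-like sample below every Trdc+ T sample. The mean was 49.3 ± 29.6 CPM in myeloid-like, 328 ± 34.5 in pDC-like, 157 ± 87.6 in B-like, 408 ± 146 in CD4 T-like, 471 ± 46.6 in Cd8a+ T, 500 ± 55.2 in CD8αβ-like and 483 ± 49.3 in Trdc+ T cells (SD, n = 4 libraries). Among neighbours in that order of levels, pDC-like and B-like cells differed, as did myeloid-like and B-like cells (39.7% and 40.6% of all genes passed in these pairs), and no others passed the test.

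H2-Q6 had 7.12 and 14.4 CPM in cystine and 42.5 and 45.7 CPM in control samples in myeloid-like cells, from 2, 4, 6 and 10 UMIs. Means were 27.4 ± 19.5 CPM in myeloid-like, 99.9 ± 11.8 in pDC-like, 113 ± 48.0 in B-like, 107 ± 13.3 in CD4 T-like, 189 ± 8.17 in Cd8a+ T, 150 ± 8.86 in CD8αβ-like and 190 ± 4.44 in Trdc+ T cells (SD, n = 4). The Trdc+ T samples, at 195 and 189 CPM in cystine and 190 and 184 CPM in control samples, lay above all CD8αβ-like samples, which ran from 143 to 163 CPM. H2-Q4 averaged 61.3 ± 32.4 CPM in myeloid-like, 137 ± 41.8 in pDC-like, 110 ± 20.7 in B-like, 204 ± 42.7 in CD4 T-like, 190 ± 16.4 in Cd8a+ T, 186 ± 26.6 in CD8αβ-like and 186 ± 7.63 in Trdc+ T cells (SD, n = 4). The myeloid-like spread of H2-Q4 came from control replicate 2, at 110 CPM, against 42.7 to 49.6 CPM in the other 3 samples. Neighbours in the order of levels differed for H2-Q6 between myeloid-like and pDC-like cells, where 28.9% of all genes passed, and for H2-Q4 between myeloid-like and B-like cells. H2-Q6 and H2-Q7 are near-identical copies, so reads may be split or lost between them, and their separate values are uncertain.

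**Figure D2:**
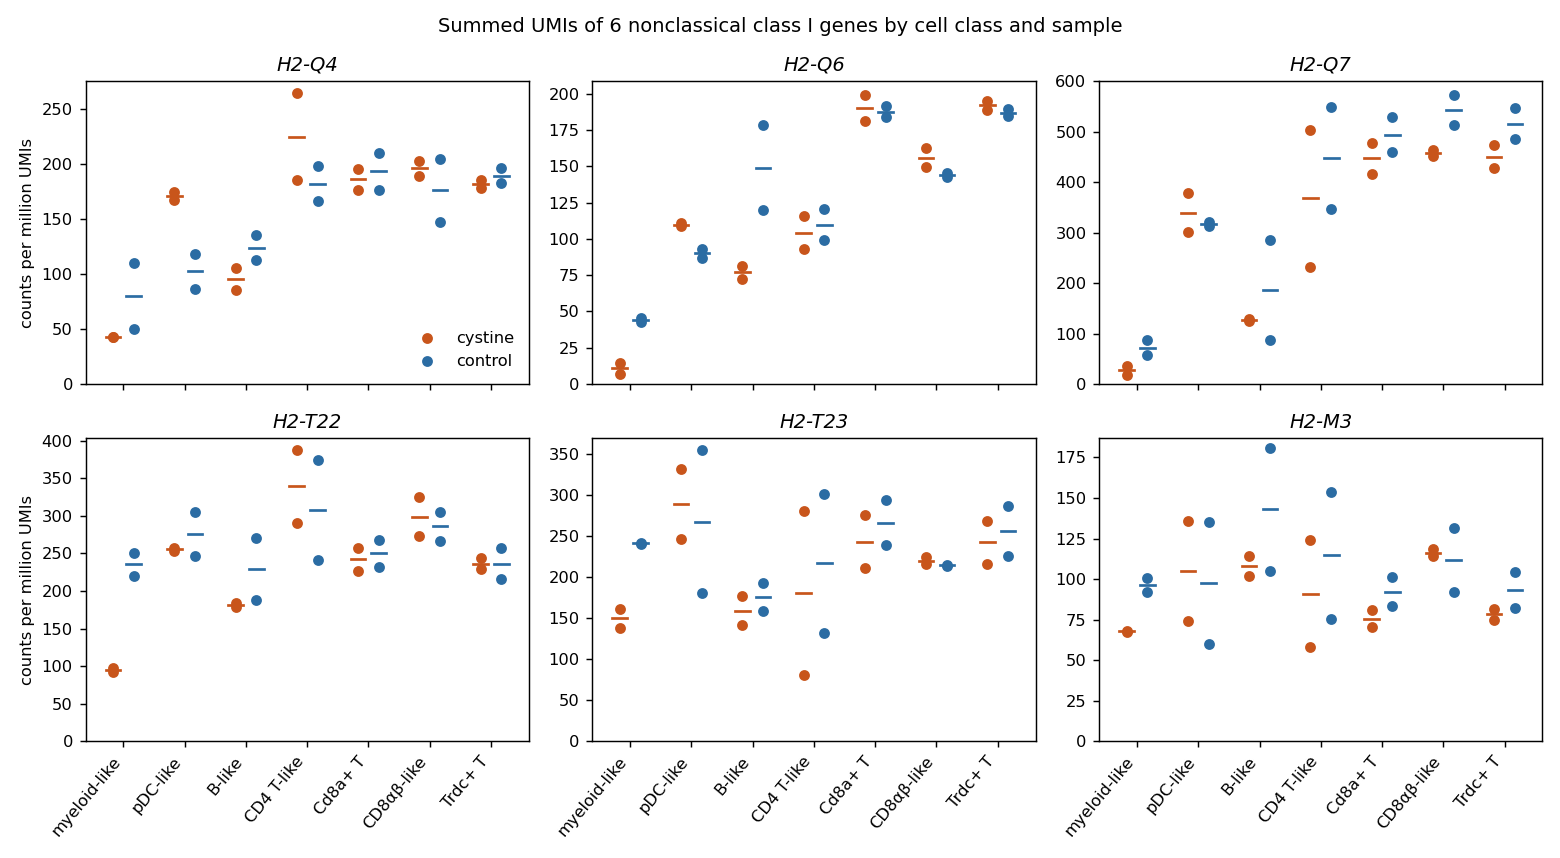
Levels of 6 nonclassical class I genes in 7 cell classes. The vertical axis is CPM of UMIs summed over a class, starting at 0, points are samples and lines group means of 2, with cystine left of control. H2-Q4, H2-Q6 and H2-Q7 are lowest in myeloid-like cells, where H2-Q7 lies between 17.8 and 86.8 CPM, and H2-T22, H2-T23 and H2-M3 lie closer together across classes.

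The ligand genes H2-T22, H2-T23 and H2-M3 varied less between classes. H2-T22 averaged 165 ± 82.3 CPM in myeloid-like, 266 ± 26.4 in pDC-like, 206 ± 43.7 in B-like, 323 ± 69.7 in CD4 T-like, 246 ± 19.9 in Cd8a+ T, 293 ± 27.6 in CD8αβ-like and 236 ± 18.2 in Trdc+ T cells (SD, n = 4). It was higher in CD8αβ-like than in Trdc+ T cells in 4 of 4 libraries, and myeloid-like and B-like cells alone differed among neighbours, at -0.49 on the log2 scale, against -0.33 without cystine replicate 1 and -0.26 without cystine replicate 2, where the call was lost. H2-T23 averaged 196 ± 53.5 CPM in myeloid-like, 278 ± 80.4 in pDC-like, 168 ± 22.3 in B-like, 199 ± 109 in CD4 T-like, 255 ± 37.0 in Cd8a+ T, 217 ± 4.73 in CD8αβ-like and 249 ± 33.9 in Trdc+ T cells (SD, n = 4). In Trdc+ T cells H2-T23 stood at 216 and 269 CPM in cystine and 287 and 226 CPM in control samples, a spread the CD8αβ-like cells of the same libraries, between 214 and 224 CPM, did not have. No neighbours in its order of levels passed the test. H2-M3 averaged 82.1 ± 16.7 CPM in myeloid-like, 101 ± 39.9 in pDC-like, 125 ± 37.1 in B-like, 103 ± 44.0 in CD4 T-like, 84.0 ± 12.9 in Cd8a+ T, 114 ± 16.4 in CD8αβ-like and 85.7 ± 12.7 in Trdc+ T cells (SD, n = 4). The order of H2-M3 put B-like cells first, and they passed the test against CD8αβ-like cells alone among neighbours, at 0.37, in a pair where 46% of all genes passed. The CPM of H2-M3 was higher in B-like cells in only 2 of 4 libraries, its CPM ratio was 0.14 on the log2 scale, and the scaling of the fit adds a median of 0.28 in this pair. The call was lost without cystine replicate 2 at 0.38, without control replicate 1 at 0.31 and without control replicate 2 at 0.30 (edgeR adjusted p = 0.102, 0.0847 and 0.0695).

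Differences between classes were tested on the same sums in 1 model over all 9223 genes that passed the low count filter, with the library as a block (edgeR's quasi-likelihood test, Benjamini-Hochberg adjustment within each pair of classes). H2-Q1 and H2-T3 did not pass the filter. In myeloid-like over Trdc+ T cells, 3 of the 7 tested members passed, all lower, where 49.5% of all genes passed and 25.5% passed as lower. The log2 fold change was -3.10 (SE 0.26) for H2-Q7 with an edgeR adjusted p of 1.3e-11, -2.67 (SE 0.29) for H2-Q6 with 3.4e-09, and -1.34 (SE 0.21) for H2-Q4 with 3.2e-06, each lower in 4 of 4 libraries. H2-T22 at -0.33, H2-T23 at -0.08 and H2-M3 at 0.20 did not pass. H2-T22 did pass without control replicate 1, at -0.57 (edgeR adjusted p = 0.0194), and without control replicate 2, at -0.56 (edgeR adjusted p = 0.0140). Of the classical genes H2-K1 was lower, at -0.68, while H2-D1 at 0.23 did not pass. B2m was called higher at 0.35, yet its CPM was higher in only 1 of 4 libraries. H2-Q2 had no UMI in myeloid-like cells of any library, where 3 UMIs would be the limit of a count of 0, so no fold is given.

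The fit scales samples by TMM, trimmed mean scaling, and its values lie above the log2 ratios of mean CPM by a median of 0.37 in B-like over Trdc+ T cells, 0.26 in myeloid-like and 0.13 in pDC-like over Trdc+ T cells, over 9 class I genes. No called class I gene other than H2-Q2, which was left out here, changed sign between the scales in any of the 21 pairs. In B-like over Trdc+ T cells, 4 of 7 members passed, beside 61.7% of all genes. H2-Q7 was lower at -1.31 (SE 0.17, edgeR adjusted p = 5.5e-08), and H2-Q6 at -0.51 and H2-Q4 at -0.42 were lower too, each in 4 of 4 libraries. H2-M3 was higher at 0.89 (SE 0.12, edgeR adjusted p = 7.5e-08), and its CPM was higher in 4 of 4 libraries, with 102 and 114 CPM in cystine and 105 and 181 CPM in control B-like samples. Without cystine replicate 1 the call of H2-Q6 was lost, at -0.35 (edgeR adjusted p = 0.0797). H2-Q2 at -1.38, H2-T22 at 0.16 and H2-T23 at -0.17 did not pass, and the CPM ratio of H2-T22 pointed the other way, at -0.20.

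Between Cd8a+ T and Trdc+ T cells none of the 7 members passed, with fitted log2 differences from -0.03 to 0.32, an edgeR adjusted p of 1 for each and none with an unadjusted p under 0.05; 0.575% of all genes passed. In CD8αβ-like over Trdc+ T cells 2 of 7 members passed, both higher in 4 of 4 libraries, beside 30.9% of all genes, or 14.7% as higher. They were H2-M3 at 0.52 (SE 0.11, edgeR adjusted p = 0.00036) and H2-T22 at 0.39 (SE 0.13, edgeR adjusted p = 0.017). H2-M3 lost its call without cystine replicate 2, at 0.35 (edgeR adjusted p = 0.128). H2-T22 lost its call without cystine replicate 1 at 0.35, without cystine replicate 2 at 0.34 and without control replicate 1 at 0.33. H2-Q6 at -0.25 did not pass although its CPM was lower in CD8αβ-like cells in 4 of 4 libraries. H2-Q2 at -0.44, H2-T23 at -0.10, H2-Q4 at 0.08 and H2-Q7 at 0.13 did not pass either. B2m was higher too, at 0.25. In Cd8a+ T over CD8αβ-like cells, H2-M3 was lower at -0.54 (edgeR adjusted p = 0.00027), among 27.6% of all genes called, and not without cystine replicate 2, at -0.36. The other 6 members, from -0.33 for H2-T22 to 0.76 for H2-Q2, did not pass.

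In CD4 T-like over Trdc+ T cells, 2 of 7 members passed, beside 14.6% of all genes. H2-Q6 was lower at -0.84 (SE 0.25, edgeR adjusted p = 0.020) in 4 of 4 libraries, and lost its call without cystine replicate 1, at -0.75 (edgeR adjusted p = 0.0649). H2-Q2 was higher at 3.26 (SE 0.75, edgeR adjusted p = 0.0027), with a higher CPM in 3 of 4 libraries. It was not among the tested genes when cystine replicate 1 or cystine replicate 2 was left out. The call of H2-Q2 rests on 4 and 13 UMIs in cystine samples and 0 and 1 UMI in control samples. Those counts gave 46.4 and 107 CPM in cystine, against 0 and 11.0 CPM in control CD4 T-like cells, and the diet effect of H2-Q2 was not tested there because it did not pass the low count filter. H2-T23 at -0.31, H2-Q7 at -0.28, H2-Q4 at 0.10, H2-M3 at 0.23 and H2-T22 at 0.41 did not pass.

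In pDC-like over Trdc+ T cells, 2 of 7 members passed, H2-Q6 lower at -0.76 (edgeR adjusted p = 0.0031) and H2-Q2 higher at 1.99 (edgeR adjusted p = 0.045), where 48.6% of all genes passed. H2-Q7 at -0.42, H2-Q4 at -0.24, H2-T22 at 0.27, H2-T23 at 0.28 and H2-M3 at 0.39 did not pass. H2-Q2 lost its call without control replicate 2, at 2.04 (edgeR adjusted p = 0.101). The epithelial list moved with this class: 10 of its 11 tested genes were higher in pDC-like cells, and its summed level of 12 genes, none at 0, was 5340 and 5174 CPM in cystine and 4935 and 7828 CPM in control pDC-like cells, against 316 to 528 CPM in Trdc+ T cells. Without 12 barcodes rich in epithelial UMIs, an alternative chosen after the data had been seen, H2-Q2 had 0 UMIs in pDC-like cells and 38.8% of all genes passed. H2-T22 at 0.67, H2-T23 at 0.63 and H2-M3 at 0.84 then passed as higher (edgeR adjusted p = 3.2e-04, 3.4e-04 and 8.4e-04), and H2-Q6 at -0.28 no longer did. With all barcodes H2-T22, H2-T23 and H2-M3 also passed without control replicate 2, at 0.38, 0.44 and 0.67, and H2-Q7 passed as lower without cystine replicate 1, at -0.50. Without the 12 epithelial-rich barcodes, however, the values of H2-Q7 and H2-Q4 turned to 0.066 and 0.22.

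In pDC-like over B-like cells 4 of 7 members passed, 3 higher and 1 lower, beside 39.7% of all genes. H2-Q7 was higher at 0.89 (edgeR adjusted p = 6.6e-04) and H2-T23 at 0.45 (edgeR adjusted p = 0.032), both in 4 of 4 libraries. H2-Q2 was higher at 3.37 (edgeR adjusted p = 0.015) in 3 of 4 libraries, and H2-M3 was lower at -0.51 (edgeR adjusted p = 0.045) with a lower CPM in only 2 of 4. H2-Q6 at -0.24, H2-T22 at 0.11 and H2-Q4 at 0.18 did not pass. H2-T23 lost its call without cystine replicate 1, without cystine replicate 2 and without control replicate 1, at 0.47, 0.45 and 0.42. H2-M3 lost it without cystine replicate 2, at -0.30, and without control replicate 2, at -0.20, and H2-Q2 without control replicate 2, at 2.96, where H2-Q4 at 0.45 passed. Of 11 tested epithelial genes 10 were higher in pDC-like cells here too. Without the 12 epithelial-rich barcodes H2-Q7 was at 1.42, H2-T23 at 0.84 and H2-M3 at -0.015, where its call was lost (edgeR adjusted p = 0.977). Myeloid-like over B-like cells showed 5 of 7 members lower, beside 40.6% of all genes, or 21% as lower: H2-Q6 at -2.15, H2-Q7 at -1.80, H2-Q4 at -0.92, H2-M3 at -0.70 and H2-T22 at -0.49. H2-M3 lost this call without cystine replicate 2, at -0.56, and H2-T22 without cystine replicate 1, at -0.33, and without cystine replicate 2, at -0.26. H2-T23 at 0.09 did not pass. Over all 21 pairs of classes, 56 of 147 tests of the 7 members passed, 14 higher and 42 lower in the first-named class, which is 38.1% beside 34.5% of all genes over the same pairs. The count was 37 without cystine replicate 1 and 35 without cystine replicate 2. H2-Q2 was not among the genes tested in these 2 fits, and without H2-Q2 the main fit has 47. By gene, H2-Q6 and H2-Q7 passed in 12 of 21 pairs, H2-Q4 and H2-Q2 in 9, H2-M3 in 7, H2-T22 in 5 and H2-T23 in 2. Every pair in which H2-Q2 passed includes CD4 T-like or pDC-like cells, where H2-Q2 rests on few UMIs. In pDC-like cells it had no UMI left without the 12 epithelial-rich barcodes.

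**Figure D3:**
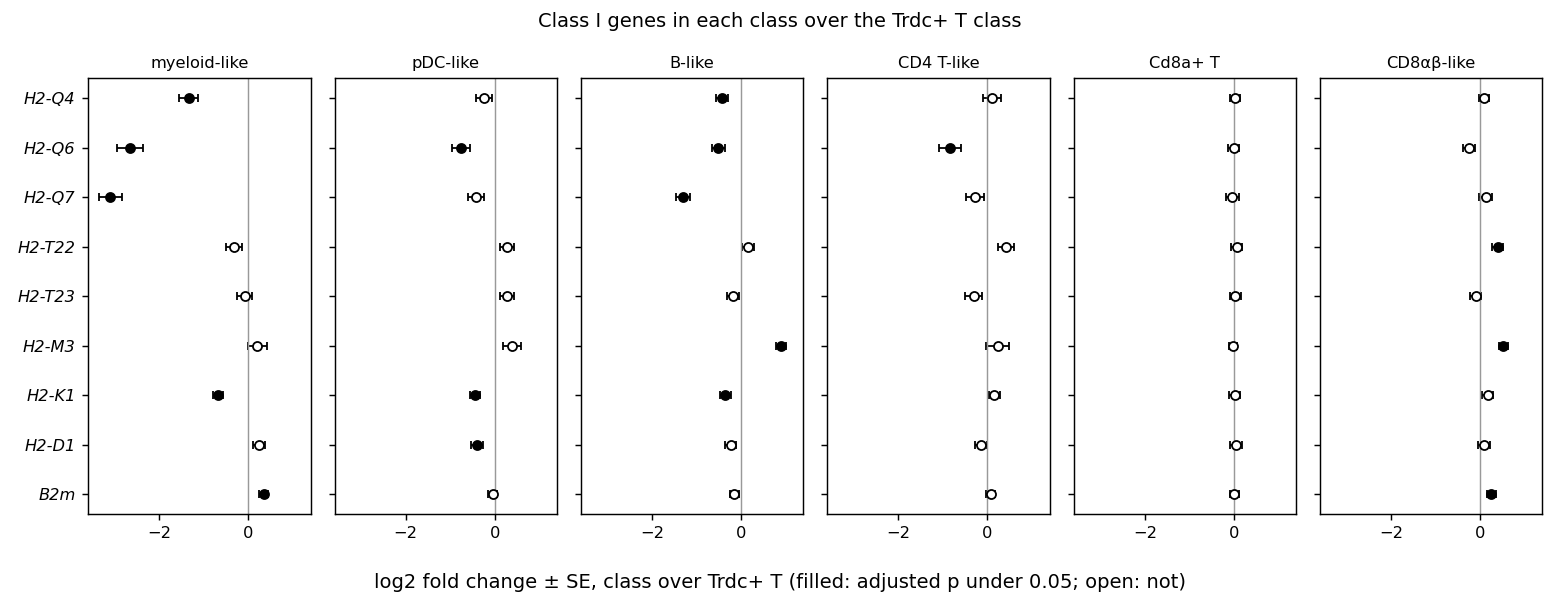
Log2 fold changes with SE of 6 nonclassical class I genes, H2-K1, H2-D1 and B2m in 6 classes over Trdc+ T cells. Filled points passed an adjusted p of 0.05 in edgeR's quasi-likelihood test. The Q genes reach -3.10 in myeloid-like cells, while the Cd8a+ T panel has no filled point.

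The genes that supply and load peptides were set beside the members. Of 14 genes of the loading list in myeloid-like over Trdc+ T cells, 6 were higher and 1 lower, near the 49.5% of all genes called in this pair, with a median of 0.26, against -0.22 over all genes. Psmb9, a subunit of the immunoproteasome, was higher at 0.89, and its activators Psme2 at 0.85 and Psme1 at 0.77. The editing chaperone Tapbpl was lower at -0.77. Nlrc5 was lower at -1.57 in myeloid-like, at -0.99 in pDC-like and at -1.90 in B-like over Trdc+ T cells. Ciita, its class II counterpart, was higher at 4.38 in myeloid-like and 4.96 in B-like cells. Of 14 interferon-stimulated genes tested, 11 were higher and 1 lower in myeloid-like cells. In B-like cells, where 61.7% of all genes passed, 3 loading genes were higher and 5 lower, with the editing chaperone Tapbpl at -1.15, the trimming peptidase Erap1 at -0.98 and Psmb9 at 0.55, and 4 interferon-stimulated genes were higher and 8 lower. In CD8αβ-like over Trdc+ T cells, where H2-T22 and H2-M3 were higher and 30.9% of all genes passed, 9 loading genes were higher and 2 lower and 9 of 14 interferon-stimulated genes were higher, with Nlrc5 at 0.25 and Irf9 at 0.80. Klrd1, which encodes the CD94 chain of the receptors for Qa-1, was lower than in Trdc+ T cells in myeloid-like cells at -4.03, in B-like cells at -4.89 and in CD8αβ-like cells at -1.35. Other genes listed as receptors went both ways. In myeloid-like cells Pirb and Lilrb4a were higher and Cd160 was lower. In B-like cells Pirb was higher, and Cd160 and Lilrb4a were lower. In CD8αβ-like cells Klrk1 and Cd160 were higher. Cd8a and Cd8b1, which served in the gates, are left out.

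Most UMIs of H2-T3, H2-Q2 and H2-Q1 lay in a small set of barcodes with epithelial UMIs. The set was drawn after the data had been seen, as the kept barcodes with at least 20 UMIs of 9 epithelial genes (Krt8, Krt18, Krt20, Vil1, Fabp1, Fabp2, Apoa1, Lgals4 and Phgr1), and it is described without a test. It holds 179 barcodes, 0.305% of those kept and 2.14% of all UMIs, with 30 and 76 in cystine and 42 and 31 in control samples. Their median depth was 3023 and 11614 UMIs in cystine and 9468.5 and 15835 UMIs in control samples. The marker gates left 100 of them unassigned and put 12 in the pDC-like class, 22 in Trdc+ T and 17 in Cd8a+ T cells. Whether such a barcode is an epithelial cell, or an immune cell with RNA of another, was not tested.

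H2-T3 had 241 of its 256 UMIs, 94.1%, in these barcodes, and a UMI in 94 of the 179, a share of 52.5%. Its level was 113 and 118 CPM in cystine and 95.3 and 124 CPM in control samples there. In all other kept cells it was 0.0813 and 0.121 CPM in cystine and 0.410 and 0.0397 CPM in control samples, from 2, 3, 9 and 1 UMIs. The median depth of the set was 11479 UMIs. In Trdc+ T cells, at median depths of 1458 and 1616 UMIs in cystine and 1432 and 1774 UMIs in control samples, 0.0275% to 0.120% of cells held an H2-T3 UMI. H2-Q2 had 71.1% of 1037 UMIs in the set but only 118 of the 397 cells with a UMI, so most cells in which it was found lay outside. Inside the set it had 465 and 308 CPM in cystine and 310 and 398 CPM in control samples. Outside it H2-Q2 was 3.13 and 4.31 CPM in cystine, against 2.78 and 2.18 CPM in control samples, groups that do not overlap. H2-Q1 had 84.4% of 128 UMIs and 54 of the 74 cells with a UMI in the set, at 34.0 and 63.2 CPM in cystine and 33.4 and 52.7 CPM in control samples, and 3, 6, 10 and 1 UMIs outside it.

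The other 6 members had between 0.156% and 0.965% of their UMIs in these barcodes. H2-Q7 was 26.5 and 18.2 CPM in cystine and 45.3 and 48.7 CPM in control samples there, against 402 and 375 CPM and 444 and 516 CPM in all kept cells of the same diets. H2-T23 stood nearest to its general level, with 98.3 and 103 CPM in cystine and 133 and 116 CPM in control samples. Most UMIs of H2-T3, H2-Q2 and H2-Q1 lay in the 147 barcodes with 40 or more epithelial UMIs, which held 238, 731 and 108 of them. The 32 barcodes with 20 to 39 epithelial UMIs held 3, 6 and 0, the 48 with 10 to 19 held 0, 2 and 1, and the 120 with 5 to 9 held 2, 8 and 1. The other UMIs, of H2-Q2 above all, lay in barcodes with under 5 epithelial UMIs.

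**Figure D4:**
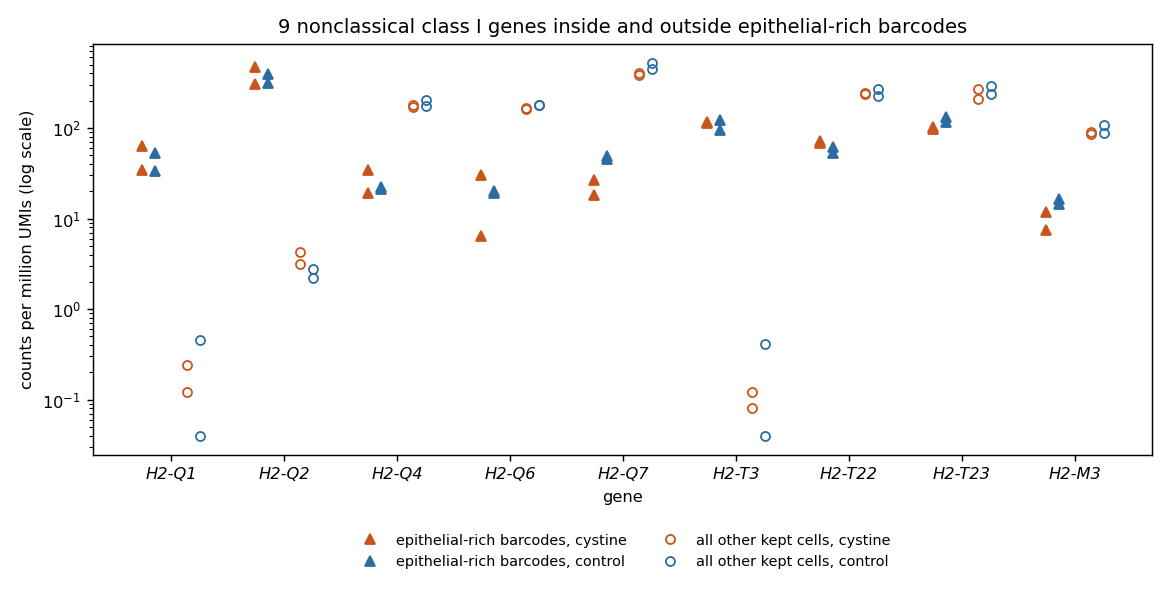
Levels of the 9 genes in epithelial-rich barcodes (filled triangles) and in all other kept cells (open circles), on a logarithmic CPM axis, each point a sample, with cystine left of control. H2-T3 lies between 95.3 and 124 CPM inside the set and under 1 CPM outside it, and H2-Q4, H2-Q6, H2-Q7, H2-T22, H2-T23 and H2-M3 lie lower inside the set than outside.

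Diet was compared within the same classes, with 2 cystine and 2 control samples. In all kept cells H2-Q7 was 402 and 375 CPM in cystine, against 444 and 516 CPM in control samples. H2-Q6 was 165 and 157 CPM in cystine, against 177 and 176 CPM in control samples. The diet groups of both genes do not overlap, and those of the next 4 do. In every diet comparison here, groups of 2 against 2 samples without overlap have a two-sided exact permutation p of 0.333. The share of all genes whose groups do not overlap is not given here. H2-Q4 was 177 and 163 CPM in cystine and 172 and 199 CPM in control samples, and H2-T22 243 and 232 CPM in cystine and 225 and 263 CPM in control samples. H2-T23 was 209 and 265 CPM in cystine and 284 and 232 CPM in control samples, and H2-M3 90.5 and 83.7 CPM in cystine and 86.7 and 106 CPM in control samples. H2-Q2 stood at 8.05 and 15.3 CPM in cystine and 8.54 and 9.76 CPM in control samples, with cystine replicate 2 highest. That library also had the most epithelial UMIs, with a summed level of the 12-gene list of 841 and 1863 CPM in cystine, against 1034 and 880 CPM in control samples, and the part of those UMIs in its level was not tested. H2-T3 at 1.29 and 4.39 CPM in cystine and 2.19 and 2.41 CPM in control samples, and H2-Q1 at 0.483 and 2.53 CPM in cystine and 1.07 and 1.05 CPM in control samples, were also highest in cystine replicate 2.

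None of the 9 members passed the test between diets in all kept cells, where 0.149% of 14075 genes did; none had an unadjusted p under 0.05 and DESeq2 called none. The largest shift among the 6 genes found throughout the immune classes was that of H2-Q7, at -0.35 (SE 0.15, edgeR adjusted p = 0.54). The median over the 9 was -0.16, against 0.00220 over all genes, with 6 of 9 below 0. H2-K1 at -0.28, H2-D1 at -0.27 and B2m at -0.35 did not pass either. Of the 12 epithelial genes 1 passed, Lyz1, the lysozyme of Paneth cells, which was higher in cystine samples at 4.76. With each cell thinned to 1000 UMIs, the share of cells with an H2-Q7 UMI was 32.2% and 31.3% in cystine, against 35.4% and 40.2% in control samples. The unthinned shares were 40.8% and 43.1% in cystine, against 44.7% and 56.7% in control samples. The two-sided exact permutation p of the thinned shares is 0.333, the smallest that 2 against 2 samples allow.

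By class, edgeR without a block called no member in any of the 7, and DESeq2 called none. All genes passed at 0.0301% in myeloid-like, 0.0316% in pDC-like, 0.102% in B-like, 0% in CD4 T-like, 0.0455% in Cd8a+ T, 0.926% in CD8αβ-like and 0.264% in Trdc+ T cells. In Trdc+ T cells H2-Q7 was 474 and 427 CPM in cystine, against 485 and 547 CPM in control samples, with a log2 fold change of -0.27 (SE 0.14). The groups do not overlap, as they do not for H2-M3, with 81.8 and 75.0 CPM in cystine, against 82.0 and 104 CPM in control samples. All 7 tested members were below 0 there, from -0.70 for H2-Q2 to -0.03 for H2-Q6, and none had an unadjusted p under 0.05. The median over all genes was 0.00398. For H2-Q2 the thinned share of cells with a UMI went the other way. It was 0.277% and 0.333% in cystine, against 0.186% and 0.224% in control samples. The class holds 22 epithelial-rich barcodes, and their part was not tested. Without control replicate 1, H2-M3 was called lower at -0.54 (edgeR adjusted p = 0.0435). In Cd8a+ T cells all 7 were below 0 as well, from -0.52 to -0.05, and without control replicate 1 H2-M3 at -0.57 and H2-Q7 at -0.39 were called (edgeR adjusted p = 0.00823 and 0.0226). In CD8αβ-like cells H2-Q7 was 464 and 451 CPM in cystine, against 513 and 573 CPM in control samples, at -0.32 (SE 0.11, edgeR adjusted p = 0.25), the 1 member with an unadjusted p under 0.05. Of the 8427 genes tested there, 918 had one.

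Myeloid-like cells had the largest shifts. H2-T22 was 92.5 and 97.0 CPM in cystine, against 220 and 251 CPM in control samples, at -1.31 (SE 0.29, edgeR adjusted p = 0.253). H2-Q7 shifted by -1.45 (SE 0.50) and H2-Q6 by -1.99 (SE 0.77), H2-Q4 by -0.96, H2-T23 by -0.68 and H2-M3 by -0.51. All 6 were below 0 with a median of -1.14, and 4 of 6 had an unadjusted p under 0.05. The 6 were measured in the same cells of each sample, so their shifts are not independent of one another. H2-Q6 and H2-Q7 rest on the few UMIs given above. Over the 3325 genes tested in this class, 248 had an unadjusted p under 0.05 and the median was 0.00123. The class holds 78 and 71 cells in cystine and 49 and 71 cells in control samples. H2-K1 at -0.67, H2-D1 at -0.53 and B2m at -0.55 were below 0 too, as were 11 of 13 loading genes, with a median of -0.37, and 7 of 10 interferon-stimulated genes, with a median of -0.91, and none of them passed. Without control replicate 1, H2-T22 at -1.38 (edgeR adjusted p = 0.00742) and H2-Q7 at -1.66 (edgeR adjusted p = 0.0402) were called. The markers of the class take in monocytes, macrophages and dendritic cells, so a lower level per cell and another mix of cells cannot be told apart. Its epithelial sum was 324 and 287 CPM in cystine, against 213 and 187 CPM in control samples, with 5 of the 12 genes at 0 in all 4, and its part in these values was not tested.

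In B-like cells H2-Q6 was 81.4 and 72.7 CPM in cystine, against 120 and 178 CPM in control samples, at -0.95 (SE 0.21, edgeR adjusted p = 0.56). The class holds 1976 and 795 cells in cystine, against 290 and 291 cells in control samples. The groups do not overlap, and all 6 tested members were below 0, where the median over all genes was 0.000833. Among the 6, H2-Q6 alone had an unadjusted p under 0.05, beside 354 of the 6868 genes tested. It was called without cystine replicate 1, at -0.97 (edgeR adjusted p = 0.0352), and without cystine replicate 2, at -0.91 (edgeR adjusted p = 0.0359). Among cells over a stricter filter (800 genes or more, a mitochondrial share of 5% or less) the difference turned to 0.16. In pDC-like cells 1 of 6 members was below 0 and H2-Q4, at 175 and 168 CPM in cystine against 119 and 86.8 CPM in control samples, had 0.71 (SE 0.32), with no unadjusted p under 0.05. In CD4 T-like cells the 6 tested members lay between -0.20 and 0.38, 4 of them below 0, with no unadjusted p under 0.05.

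Whether the diet effect differs between a class and Trdc+ T cells was tested as an interaction, and edgeR and DESeq2 called no member in any of the 6 classes. All genes passed at 0.306% over the 6 together. The nearest was H2-T22 in myeloid-like cells, with a difference of -1.17 (SE 0.32, edgeR adjusted p = 0.073), then H2-Q6 in B-like cells at -0.81 (SE 0.22, edgeR adjusted p = 0.127). H2-Q6 in B-like cells was called without control replicate 1, at -1.04 (edgeR adjusted p = 0.0148). At an unadjusted p under 0.05 there were 3 members in myeloid-like cells, beside 506 of 11149 genes. There was 1 member each in pDC-like (beside 478 of 11508 genes), B-like (615 of 11560), CD4 T-like (357 of 10620) and CD8αβ-like cells (1073 of 10868).

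**Figure D5:**
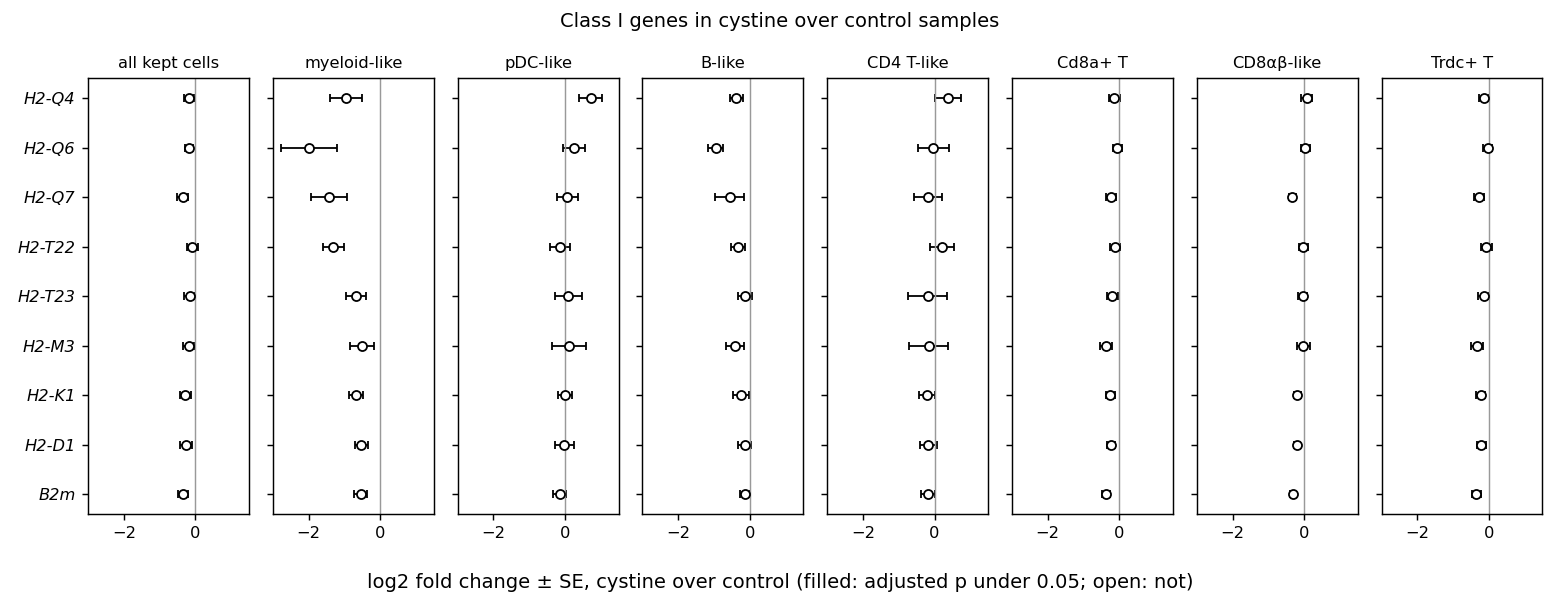
Log2 fold changes with SE of 6 nonclassical class I genes, H2-K1, H2-D1 and B2m in cystine over control samples, for all kept cells and 7 classes. Filled points would mark an adjusted p under 0.05 in edgeR's quasi-likelihood test, and there are none. The 6 genes lie below 0 in myeloid-like cells, down to -1.99 for H2-Q6.

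Within Trdc+ T cells, 423 cells with at least 3 UMIs of 10 interferon-stimulated genes were compared with 12131 cells that had none. Of 6 tested members none passed, beside 3.36% of all genes. An unadjusted p under 0.05 was found for 1449 of 10208 genes and for 1 member. That was H2-T22 at 0.37 (SE 0.12, edgeR adjusted p = 0.076), and the other 5 lay between -0.16 and 0.20. H2-T22 was called by DESeq2, at 0.41, and without control replicate 2, at 0.51 (edgeR adjusted p = 0.00295). Of 14 loading genes 6 were higher, among them the peptide transporter Tap1 at 0.59 and Psme2 at 0.51, as was Irf9 at 1.06 among the regulators. The interferon-high cells were deeper, with median depths of 2162.5 and 2241 UMIs in cystine and 1950.5 and 2326.5 UMIs in control samples, against 1384 and 1484 UMIs and 1350 and 1674 UMIs in the other cells. Of 11 epithelial genes 5 were higher and 1 lower in them, and the part of either in the result was not tested. Cells with Tcrg-V7 (6563), the γ chain typical of gut intraepithelial γδ T cells, and those with Tcrg-V1 (3035) did not differ in any of 7 members by edgeR or DESeq2, beside 6.36% of all genes. The log2 differences ran from -0.39 for H2-Q2 to 0.03 for H2-T22, and 3 had an unadjusted p under 0.05, beside 1551 of 9859 genes. There 7 of 11 epithelial genes were higher and 5 of 11 interferon-stimulated genes lower in Tcrg-V7 cells, and their part was not tested.

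Across the 7 class means, the pattern of H2-Q4 was most like that of H2-Q7 among members (Pearson's r = 0.980 on log2 CPM plus 1), with 0.917 between H2-Q6 and H2-Q7, 0.893 between H2-Q4 and H2-Q6 and 0.879 between H2-T22 and H2-Q4. H2-T23 and H2-M3 had -0.487. Among 10416 genes with at least 10 CPM in a class, the patterns nearest to H2-Q7 were those of Ncaph2, Paf1 and Cnnm3 (r from 0.995 to 0.997) and those nearest to H2-Q6 Chst11, Rpap1 and Wdr83 (r from 0.996 to 0.999). H2-Q4 was nearest to Gnb1l, Wrn and Aopep, H2-T22 to Cdk7, Sh3glb2 and Bdh1, and H2-T23 to Selenom, Isg20l2 and Rmnd5a. H2-M3 was nearest to the ribosomal protein genes Rps18, Rpl36a and Rpl27a (r from 0.973 to 0.989). The 7 points share libraries and differ in depth and in number of cells.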

How the data were processed

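The deposited tables hold UMI counts per gene and barcode, unnormalised, of which the authors' barcodes all have at least 500 UMIs. GRCm39, Seurat 4.0.1 and Cell Ranger 3.1.0 appear in the submitters' processing notes, and the matrix headers name version 7.0.1. Kept barcodes had 300 genes or more and a mitochondrial share of 10% or less, and the highest Scrublet scores (scanpy 1.11.5) were removed as doublets at 0.8% per 1000 barcodes. Kept cells held 24850446 and 25742401 UMIs in cystine and 22367265 and 25706551 in control samples.

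Cells were put into classes by marker UMIs. The T classes need a Cd3 UMI and under 2 UMIs of each other lineage, and the B-like, pDC-like and myeloid-like classes need at least 2 UMIs of their own list, under 2 of the others and no Cd3 UMI. Counts were summed per sample and class with at least 30 cells in every sample, filtered (filterByExpr), scaled by TMM and tested with edgeR 4.0.16 (glmQLFit, glmQLFTest) in R 4.3.3, with Benjamini-Hochberg adjustment over all genes and a threshold of 0.05. Class and state contrasts had the sample as a block, diet contrasts no block. DESeq2 1.42.0 was an alternative. The test was checked on simulated data. The members, gene lists and gates were chosen with earlier results of these data known. By the naming rule members are named whatever their values, which the text keeps for comparisons described one by one, while the other class pairs and the interactions are given by counts. Of each other list up to 4 genes past the threshold are named. UMIs of summed cells are not independent of the library, so floors of 3 UMIs cover counting error only. H2-T10, Cd1d2 and Mx1, listed among related genes, were not analysed here.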

Additional observations from a re-analysis of the deposited data

How the results depend on the processing

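Alternatives covered scaling, DESeq2, the low count filter, receptor and immunoglobulin genes, cell filters, doublets, thinning to 1000 UMIs, stricter gates and leaving out each sample; the largest-lineage gate and the removal of epithelial-rich barcodes were chosen after the data had been seen. Members called over all class pairs, 56 in the main fit, numbered 35 to 64 when 1 sample was left out and 35 to 81 over all complete alternatives. The count of 35 is from a fit that did not test H2-Q2, without which the main fit has 47. Members called between diets stayed at 0 under every alternative in all kept cells, CD4 T-like and pDC-like cells. With 1 sample left out they ranged from 0 to 1 in Trdc+ T, 0 to 2 in Cd8a+ T, 0 to 1 in B-like and 0 to 2 in myeloid-like cells. With no low count filter 1 member was called in B-like cells. In interferon-high Trdc+ T cells 1 member was called with DESeq2 size factors, with the DESeq2 Wald test, and with no doublet removal, and 0 to 1 with 1 sample left out. The interaction called 1 member with DESeq2 size factors, 1 with no filter, and 0 to 1 with 1 sample left out.

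Signs turned as follows. Among cells of 800 genes or more and a mitochondrial share of 5% or less, diet differences became 0.0032 for H2-Q6 in Trdc+ T cells and 0.20 for H2-Q4, 0.16 for H2-Q6, 0.29 for H2-Q7 and 0.056 for H2-T23 in B-like cells, and H2-T22 in B-like over Trdc+ T cells became -0.30. H2-Q4 in CD8αβ-like over Trdc+ T cells became -0.010 without the filter and -0.078 after thinning. With the largest-lineage gate H2-T23 in myeloid-like over Trdc+ T cells became 0.12, and in pDC-like over Trdc+ T cells H2-Q4 became 0.15 and H2-Q7 0.058. Without epithelial-rich barcodes those 2 became 0.22 and 0.066. Leaving out 1 sample moved diet differences in all kept cells from -1.17 to 1.18 for H2-Q1, -0.23 to 0.67 for H2-Q2, -0.88 to 0.86 for H2-T3, -0.26 to 0.092 for H2-T22 and -0.39 to 0.017 for H2-M3. In Trdc+ T cells the ranges were -0.067 to 0.0031 for H2-Q6, -0.25 to 0.12 for H2-T22 and -0.31 to 0.0029 for H2-T23, and in B-like cells -1.19 to 0.54 for H2-Q7, -0.35 to 0.076 for H2-T23 and -0.76 to 0.052 for H2-M3. H2-Q4 in CD8αβ-like over Trdc+ T cells ranged from -0.019 to 0.12. The cause of these changes was not tested.

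The submitters' design text speaks of matched controls, but whether replicate numbers pair the samples is not given in the sources used here. Same-numbered deviations from the group means correlated at 0.0205 over 6175 genes. That value rests on a single difference within each group and does not settle the pairing. With the replicate number as a block, 1 member was called in CD8αβ-like cells (H2-Q7, edgeR adjusted p = 0.0405), 1 in B-like cells (H2-Q6, 8.0e-04) and 1 in myeloid-like cells (H2-T22, 0.0257), and 0 in all kept cells. Not run for want of 30 cells in every sample were the stricter cell filter, thinning and stricter gates in CD4 T-like cells, thinning and stricter gates in interferon-high cells, interferon-high CD8αβ-like cells (20 and 27 cells in control samples) and proliferating Trdc+ T cells (21 cells in cystine replicate 2). Myeloid-like and CD4 T-like sums rest on the fewest UMIs, and levels of a few UMIs limit what can be detected there.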

Other observations

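Of 16 other class I-like genes 5 were tested between classes. Over Trdc+ T cells 4 were higher and 1 lower in myeloid-like, 2 higher and 1 lower in pDC-like and 3 higher in B-like cells, where 49.5%, 48.6% and 61.7% of all genes passed. H2-T24, a class I gene of the T region, was higher at 2.15 in myeloid-like, 2.12 in pDC-like and 1.82 in B-like over Trdc+ T cells on the log2 scale (edgeR adjusted p = 6.1e-05, 7.8e-05 and 9.8e-07). Fcgrt, the neonatal Fc receptor, which carries immunoglobulin G, was higher at 6.88 in myeloid-like, 5.98 in pDC-like and 4.23 in B-like cells. Raet1e, a ligand of the NKG2D receptor, was higher at 2.54 in B-like cells and, from few UMIs, at 2.36 in myeloid-like cells. Hfe, a class I-like protein of iron handling, was called higher in myeloid-like cells, and no fold is given because Trdc+ T cells held very few of its UMIs. Cd1d1, which presents lipids, was lower at -1.42 in myeloid-like and -1.83 in pDC-like cells.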
